A study of Mus musculus with 6 samples.

Results

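The genes described here are 36 mouse genes that were listed by name: 26 genes of the interferon response, which for the most part act against viruses, and 10 genes of MHC class I antigen presentation. They were found by symbol, through the GENCODE M21 annotation, among 53801 genes of a deposited table of RNA-seq read counts. The study put a FLAG-tagged copy of the transcription factor Arid3a, switched on by doxycycline, into mouse fetal liver cells, and set these cells against cells that carried LUC in its place. Both groups were grown from embryos at day E12.5-13.5 of a strain that carries Cas9 and EGFP at the Rosa26 locus, both also carried sgGata1 and a miR-125b transgene, and both received doxycycline at 1 µg/mL for 48 h. The names of the samples give the cells as Gata1s, the short form of the erythroid and megakaryocytic factor Gata1. There were 3 Arid3a-FLAG libraries and 3 LUC libraries, and the labels do not say whether the libraries of a group came from separate cultures or embryos. The p-values below therefore measure the spread between these libraries, which may be technical.

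Interferons are secreted proteins that bind receptors on the cell surface and act through the JAK kinases and STAT factors. Type I interferon leads to a complex with Stat2 and Irf9 that binds the interferon-stimulated response element, and interferon gamma acts through the gamma-activated site. The genes that carry these elements encode sensors of viral RNA, proteins that block viral replication, and the parts of the MHC class I pathway. In that pathway the proteasome cuts proteins into peptides, the Tap1 and Tap2 transporter moves them into the endoplasmic reticulum, tapasin (Tapbp) helps to load them, and a heavy chain paired with beta-2-microglobulin (B2m) presents them to CD8 T cells. Haematopoietic cells use many of these genes at a basal level without infection.

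Total counts per library ran between 15728150 and 18249053. The construct entry held 3348, 3044 and 2758 counts in the 3 Arid3a-FLAG libraries and 0 in each LUC library, as labelled. Levels are given as CPM, counts per 1000000 counts of a library after scaling by TMM factors, and fold changes are log2 values of Arid3a-FLAG over LUC with their standard error (SE). The cells carried blood markers. Itga2b, an integrin chain of megakaryocytes, averaged 2068 ± 108 CPM in Arid3a-FLAG and 1778 ± 158 CPM in LUC libraries (SD, n = 3 each). It is 1 of 11 blood markers listed, of which 4 had fold changes above 0 and 7 below 0. Of the hepatocyte markers, albumin (Alb) averaged 0.0209 ± 0.0362 CPM in Arid3a-FLAG and 0.0436 ± 0.0755 CPM in LUC libraries. Afp, the fetal one, averaged 18.1 ± 2.10 CPM in Arid3a-FLAG and 22.1 ± 3.56 CPM in LUC libraries. LUC library 2 stood apart from the other 5 on the second principal component of all genes tested. It had the highest of the 6 values for 31.3% of all genes tested and for 6 of the 10 antigen presentation genes.

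Of the 36 genes, 34 had enough counts to be tested, and 7 of them passed an adjusted p of 0.05, which is what called means below. Trim25 and Eif2ak2 rose, while Bst2, Isg20, Irf3 and the immunoproteasome subunits Psmb8 and Psmb9 fell. That is 20.6% of the genes tested, where 7.29% of all 13631 genes passed in either direction, 3.43% higher and 3.87% lower. The interferon response genes gave 2 higher and 3 lower of 24 tested, with a median log2 fold change of 0.08. The antigen presentation genes gave 0 higher and 2 lower of 10 tested, with a median log2 fold change of -0.24, beside -0.03 over all genes tested. At an unadjusted p under 0.05 there were 15 of the 34 genes, 4 higher and 11 lower, against 25.6% of all genes. The 3 values of each group did not overlap for 7 genes that were higher and 13 that were lower in Arid3a-FLAG libraries, where 16.6% of all genes were so separated in the higher and 16.5% in the lower direction. The 7 calls rest on all 3 Arid3a-FLAG libraries and on LUC library 1: without any 1 of these, 0 of the 34 genes were called.

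**Figure D1:**
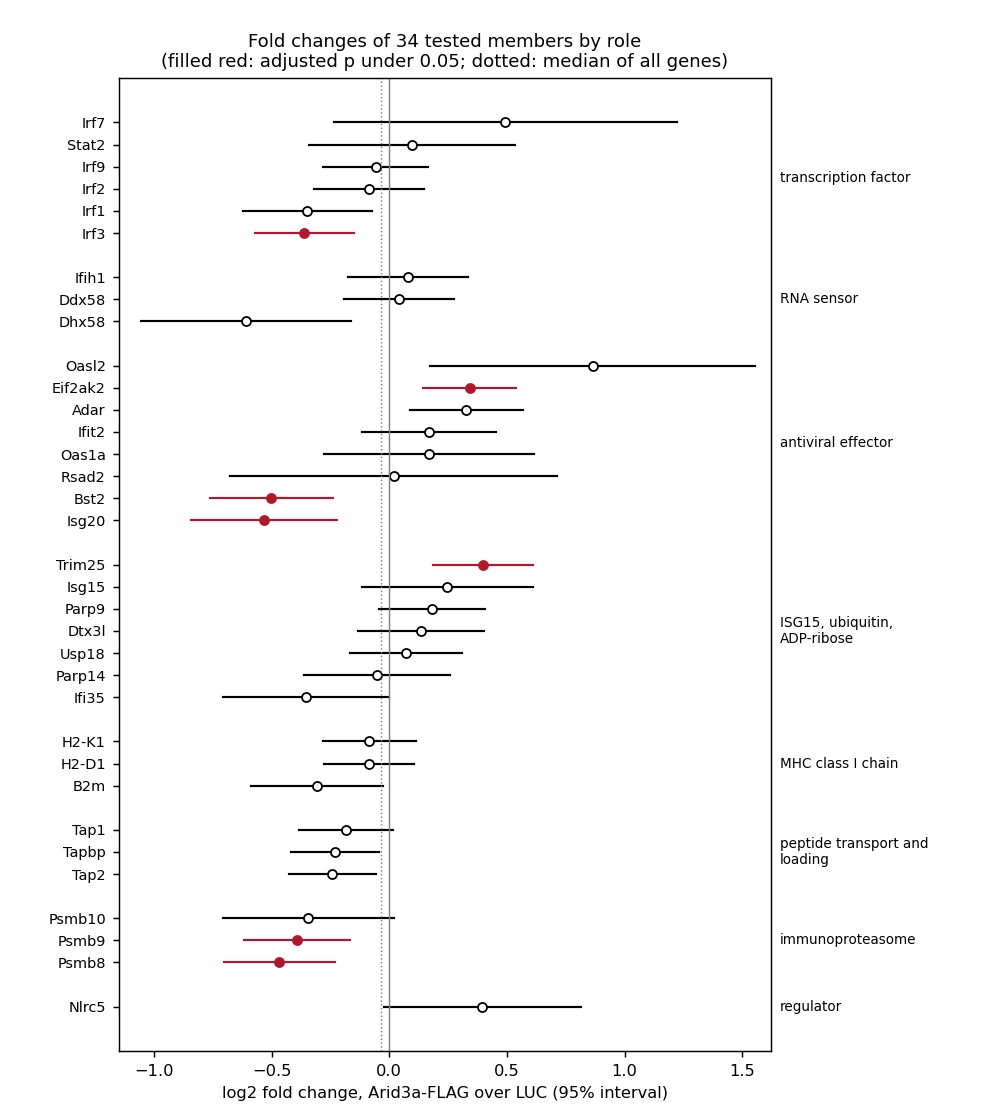
Log2 fold change of Arid3a-FLAG over LUC (horizontal axis) for each of the 34 genes tested, grouped by role, with 95% intervals from the fit across all genes. Filled red points are the 7 genes past an adjusted p of 0.05, and of the 10 antigen presentation genes at the bottom every point except Nlrc5 lies below 0.

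Among the 6 transcription factors of the list, 1 passed the test. Irf3 (ENSMUSG00000003184, chr7:44997648-45002848, mm10), which enters the nucleus after viral RNA or DNA is sensed and switches on interferon beta, had 61.6, 56.2 and 59.4 CPM in Arid3a-FLAG libraries 1 to 3, against 82.2, 75.7 and 69.6 CPM in LUC libraries 1 to 3. Every Arid3a-FLAG value lay below every LUC value. Irf3 fell, with a log2 fold change of -0.36 (SE 0.09, with an adjusted p of 0.045). Irf1, a factor that interferon gamma induces and that itself drives MHC class I genes, had 19.5, 22.005 and 17.8 CPM in Arid3a-FLAG and 23.98, 23.6 and 28.0 CPM in LUC libraries. Its groups did not overlap either, but the log2 fold change of -0.35 (SE 0.12) did not pass (adjusted p = 0.112). Irf7, which amplifies the type I interferon response, was low: 1.37, 2.96 and 3.202 CPM in Arid3a-FLAG and 1.68, 1.90 and 1.78 CPM in LUC libraries. Arid3a-FLAG library 1 was the lowest of the 6 and the other two Arid3a-FLAG libraries the highest, so the groups overlapped (log2 fold change 0.49, SE 0.33, adjusted p = 0.374). Irf9 and Stat2, which act together in the type I complex, and Irf2, a repressor that competes with Irf1, had log2 fold changes between -0.09 and 0.10 with overlapping groups. Stat2 was at 50.0, 49.1 and 52.1 CPM in Arid3a-FLAG libraries and at 59.2, 29.9 and 52.1 CPM in LUC libraries, the value of LUC library 2 being far below the rest.

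None of the 3 RNA sensors passed. Dhx58, which encodes LGP2, a helper of the sensor Mda5, had 4.28, 3.77 and 5.27 CPM in Arid3a-FLAG and 6.12, 6.21 and 7.93 CPM in LUC libraries. All 3 Arid3a-FLAG values lay below the LUC values, and the log2 fold change was -0.61 (SE 0.20, adjusted p = 0.094). Ifih1 (Mda5) and Ddx58 (RIG-I), the sensors themselves, had log2 fold changes of 0.08 (SE 0.12) and 0.04 (SE 0.10), and their groups overlapped.

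The 10 antiviral effectors held 1 gene that rose, 2 that fell, 5 that did not pass and 2 that were too low to test. Bst2 (tetherin, ENSMUSG00000046718, chr8:71534255-71537456), which holds budding virions on the cell surface, had 60.3, 59.1 and 56.4 CPM in Arid3a-FLAG libraries 1 to 3, against 80.7, 97.8 and 70.6 CPM in LUC libraries 1 to 3. The Arid3a-FLAG libraries kept within a narrow range below the LUC libraries, among which library 2 was the highest. Bst2 fell with a log2 fold change of -0.50 (SE 0.12, with an adjusted p of 0.031). Isg20 (ENSMUSG00000039236, chr7:78913424-78920396), an exonuclease that degrades viral RNA, had 9.31, 9.81 and 10.8 CPM in Arid3a-FLAG and 12.9, 14.8 and 15.5 CPM in LUC libraries. These groups were separate too, and Isg20 fell (log2 fold change -0.53, SE 0.14, adjusted p = 0.045). Eif2ak2 (PKR, ENSMUSG00000024079, chr17:78852564-78882573), a kinase that binds double-stranded RNA and stops translation, had 68.0, 74.95 and 74.96 CPM in Arid3a-FLAG libraries, against 56.7, 55.1 and 60.2 CPM in LUC libraries. All Arid3a-FLAG libraries were above all LUC libraries, and Eif2ak2 rose with a log2 fold change of 0.34 (SE 0.09, with an adjusted p of 0.045).

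Adar, the enzyme that edits adenosine to inosine in double-stranded RNA and so hides it from Mda5 and PKR, had 48.7, 50.9 and 56.2 CPM in Arid3a-FLAG and 40.9, 37.2 and 46.0 CPM in LUC libraries. The groups were separate, with Arid3a-FLAG higher, but the log2 fold change of 0.33 (SE 0.11) did not pass (adjusted p = 0.093). Oasl2, a relative of the oligoadenylate synthetases, was near the lower end of what was tested, at 1.86, 1.39 and 2.20 CPM in Arid3a-FLAG and 0.982, 0.850 and 1.13 CPM in LUC libraries. Each Arid3a-FLAG value was above each LUC value, yet its log2 fold change of 0.86, farther from 0 than that of any other of the 34 genes, had an SE of 0.31 (adjusted p = 0.118). Ifit2, Oas1a and Rsad2 (viperin) had log2 fold changes between 0.02 and 0.17. Ifit1 had 3, 6 and 10 counts in Arid3a-FLAG libraries and 4, 0 and 4 in LUC libraries, and Ifit3 had 3, 9 and 0 counts in Arid3a-FLAG libraries and 1, 0 and 6 in LUC libraries. Both are among the strongest responders to type I interferon in most cell types, and both stayed under the filter on low counts here. Ifit3b, the near-identical neighbour of Ifit3, had 1 count in Arid3a-FLAG library 3 and 0 in the other libraries, and how reads that match both were treated is not known.

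The 7 genes of ISG15, ubiquitin and ADP-ribose modification, among which Ifi35 was placed though it is no such enzyme, held 1 that rose. Trim25 (ENSMUSG00000000275, chr11:88999376-89020293), the ubiquitin ligase that acts on RIG-I signalling, had 139, 133 and 135 CPM in Arid3a-FLAG libraries 1 to 3, against 96.0, 96.9 and 115 CPM in LUC libraries 1 to 3. The lowest Arid3a-FLAG library was above the highest LUC library, which was library 3. Trim25 rose with a log2 fold change of 0.40 (SE 0.10, with an adjusted p of 0.033). Isg15, the ubiquitin-like modifier itself, had 10.99, 9.87 and 12.3 CPM in Arid3a-FLAG and 7.86, 10.7 and 9.39 CPM in LUC libraries, and the groups overlapped (log2 fold change 0.25, SE 0.16, adjusted p = 0.373). Parp9, an ADP-ribosyltransferase, had 28.7, 28.0 and 26.2 CPM in Arid3a-FLAG and 23.8, 23.5 and 25.7 CPM in LUC libraries. Its groups were separate by a small margin, and it did not pass (log2 fold change 0.18, SE 0.10, adjusted p = 0.293). Dtx3l, the ligase that pairs with Parp9 and shares a promoter region and 458 exonic bases with it on the other strand, had a log2 fold change of 0.13 (SE 0.12). Ifi35 had 18.9, 17.2 and 17.8 CPM in Arid3a-FLAG and 24.2, 27.5 and 17.4 CPM in LUC libraries. LUC library 3 lay among the Arid3a-FLAG values, and the log2 fold change was -0.35 (SE 0.16, adjusted p = 0.194). Usp18, which removes ISG15 and dampens the interferon receptor, and Parp14 had log2 fold changes of 0.07 and -0.05.

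**Figure D2:**
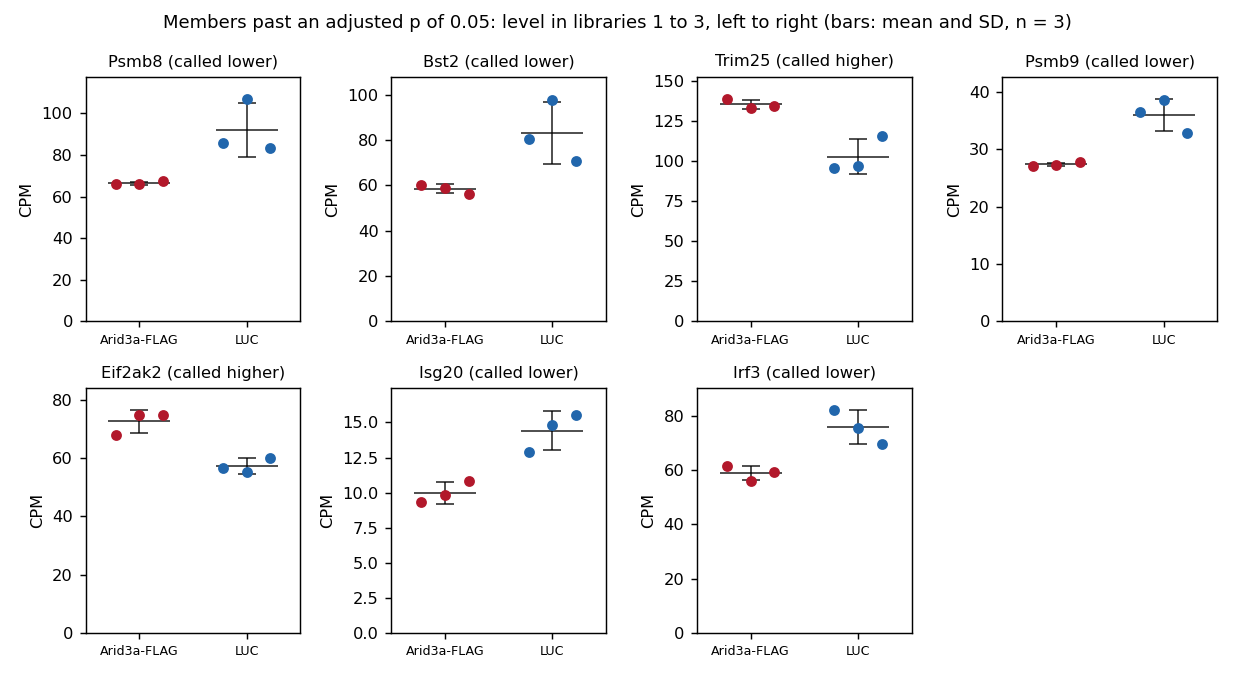
CPM (vertical axis, from 0) in libraries 1 to 3 of Arid3a-FLAG (red, left) and LUC (blue, right) for the 7 genes past an adjusted p of 0.05, with the mean and SD of each group. In each panel the groups do not overlap, and for Psmb8, Bst2 and Trim25 the LUC libraries are spread more widely than the Arid3a-FLAG libraries.

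The promoters of 4 of these genes are shown because they set genes that rose, fell and did not pass beside the elements that interferon acts through. The sequences are from RefSeq (GRCm38.p6) and run from 250 bases before the transcription start to 50 bases from it on, 5′ to 3′ on the gene's strand. Capitals mark matches to the core of the interferon-stimulated response element (ISRE), GAAANNGAAA, and to the gamma-activated site (GAS), TTCNNNGAA, searched on both strands. Bst2, which fell, is at chr8:71537423-71537722 (minus strand), and its capitals hold a GAS match and a pair of overlapping ISRE matches that share bases with it, 136 to 115 bases before the start. Eif2ak2, which rose, is at chr17:78882523-78882822 (minus strand), with a GAS match upstream and an ISRE match just after the start. Isg15, which did not pass, is at chr4:156200769-156201068 (minus strand), with 3 overlapping ISRE matches. Psmb8, which fell, is at chr17:34197945-34198244 (plus strand), with a GAS match 97 to 89 bases before the RefSeq start, which lies inside the gene's span in GENCODE.
Bst2: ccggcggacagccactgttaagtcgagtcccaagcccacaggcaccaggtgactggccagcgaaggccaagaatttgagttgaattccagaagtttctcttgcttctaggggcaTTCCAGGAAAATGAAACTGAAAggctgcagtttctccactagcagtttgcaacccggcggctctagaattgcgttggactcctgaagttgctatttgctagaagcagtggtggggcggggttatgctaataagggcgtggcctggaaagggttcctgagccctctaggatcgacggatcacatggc
Eif2ak2: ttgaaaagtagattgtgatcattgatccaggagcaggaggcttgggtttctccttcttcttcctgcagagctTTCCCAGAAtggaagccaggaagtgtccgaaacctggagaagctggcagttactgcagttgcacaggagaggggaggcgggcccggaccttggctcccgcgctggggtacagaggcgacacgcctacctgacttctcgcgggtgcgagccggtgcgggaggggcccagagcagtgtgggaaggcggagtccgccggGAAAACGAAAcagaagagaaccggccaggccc
Isg15: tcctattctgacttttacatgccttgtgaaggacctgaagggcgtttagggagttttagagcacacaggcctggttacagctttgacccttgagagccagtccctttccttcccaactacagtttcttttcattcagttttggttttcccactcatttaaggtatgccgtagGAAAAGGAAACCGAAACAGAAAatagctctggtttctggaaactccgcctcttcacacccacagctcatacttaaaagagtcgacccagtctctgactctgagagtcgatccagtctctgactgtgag
Psmb8: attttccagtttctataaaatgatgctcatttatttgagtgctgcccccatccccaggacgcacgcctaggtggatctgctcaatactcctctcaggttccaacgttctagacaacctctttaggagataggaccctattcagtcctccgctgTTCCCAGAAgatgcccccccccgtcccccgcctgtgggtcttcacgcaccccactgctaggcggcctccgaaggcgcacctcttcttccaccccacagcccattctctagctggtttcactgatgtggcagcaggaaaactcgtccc

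A promoter window was found for 30 of the 36 genes, 38 windows in all since some genes have several starts. Dhx58, Usp18, Parp9, Parp14, Tap2 and Nlrc5 had no entry. An ISRE match lay in 12 of the 38 windows (31.6%), against 3.44% of all 32851 windows, and a GAS match in 10 (26.3%), against 8.30%. The short AT-rich run ATTAAA, of the kind that ARID domains bind, lay in 3 windows (7.89%), those of Ifi35, Psmb10 and Tapbp, against 13.9% of all windows, and in none of the 9 windows of the called genes. The 12 genes with an ISRE match were Bst2, Eif2ak2, B2m, Ddx58, Ifih1, Ifit1, Ifit3, Irf2, Isg15, Oas1a, Rsad2 and Stat2. Of the 10 among them that were tested, 1 rose, 1 fell and 8 did not pass, with a median log2 fold change of 0.06. The 18 genes whose windows had no ISRE match were all tested, and 1 rose and 4 fell, with a median of -0.13. Of the 10 genes with a GAS match, all tested, 1 rose (Eif2ak2), 3 fell (Bst2, Isg20 and Psmb8) and 6 did not pass, with a median log2 fold change of -0.22. Of the 18 tested genes without one, 1 rose and 2 fell, with a median of -0.02. Of the 9 windows of called genes, 4 (44.4%) held a GAS match and 2 (22.2%) an ISRE match, and 3 of these 9 windows were of Isg20. A match is a run of letters and not a measured binding site. The search took exact letters only, so a window without a match may still hold a variant of an element. Genes with and without a match to each of these 2 elements held calls in both directions.

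In the MHC class I chains, the peptide transporter and the immunoproteasome, 9 fold changes of 9 lay below 0, and 2 of the genes passed. Of all 13631 genes tested, 7454 had a fold change below 0. The heavy chain gene H2-K1 had 559, 565 and 555 CPM in Arid3a-FLAG libraries, against 577, 609.7 and 593 CPM in LUC libraries. The heavy chain gene H2-D1 had 377, 389.8 and 372 CPM in Arid3a-FLAG and 391, 416 and 402 CPM in LUC libraries. For both, each Arid3a-FLAG library was below each LUC library, by a small margin. The log2 fold changes were -0.08 for H2-K1 (95% interval -0.28 to 0.11) and -0.09 for H2-D1 (95% interval -0.28 to 0.11), with adjusted p of 0.587 and 0.566. The sequences of these 2 genes are close enough that reads may have been assigned to the wrong one, and with their counts added the log2 fold change was -0.09 (adjusted p = 0.608).

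B2m, the light chain that every MHC class I heavy chain needs to reach the surface, had 425, 411 and 416 CPM in Arid3a-FLAG and 452, 626 and 469.6 CPM in LUC libraries. The LUC values were all higher, LUC library 2 far more so than libraries 1 and 3, and the log2 fold change of -0.31 (SE 0.13) did not pass (adjusted p = 0.161). Without LUC library 2 it was -0.13 (adjusted p = 0.155). The ratio of H2-K1 to B2m, formed from CPM values, was 1.32, 1.38 and 1.34 in Arid3a-FLAG libraries and 1.28, 0.9746 and 1.26 in LUC libraries, so that every Arid3a-FLAG ratio was the higher (two-sided exact permutation p = 0.10, the smallest that 3 against 3 can give). The LUC ratio of library 2 was again far from those of libraries 1 and 3, which lay close to the Arid3a-FLAG ratios. The ratio of H2-D1 to B2m was 0.887, 0.949 and 0.896 in Arid3a-FLAG libraries and 0.864, 0.665 and 0.857 in LUC libraries, all Arid3a-FLAG ratios again the higher (the same exact test, p = 0.10). The ratios, here and below, were chosen after the values of the genes had been seen.

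The transporter and loading genes were lower in all Arid3a-FLAG libraries than in all LUC libraries, by small amounts, and none passed. Tap1 had 65.1, 65.0 and 59.3 CPM in Arid3a-FLAG and 73.7, 67.2 and 74.1 CPM in LUC libraries (log2 fold change -0.18, SE 0.09, adjusted p = 0.230). Tap2 had 64.0, 66.4 and 68.3 CPM in Arid3a-FLAG and 80.8, 77.8 and 76.3 CPM in LUC libraries (log2 fold change -0.24, SE 0.08, adjusted p = 0.105). For Tap2 the highest Arid3a-FLAG value and the lowest LUC value lay well apart, and the spread within each group was small. Tapbp, the loading factor tapasin, had 108, 104 and 109.8 CPM in Arid3a-FLAG and 119.5, 126 and 132 CPM in LUC libraries (log2 fold change -0.23, SE 0.08, adjusted p = 0.119). An antisense gene overlaps 24.9% of the exonic length of Tapbp, and no source used here gives the strand setting of the counting, so the reads of these genes cannot be told apart. Tap2 and Tapbp were called lower when LUC library 2 was left out, with log2 fold changes of -0.23 (adjusted p = 0.041) and -0.22 (adjusted p = 0.046).

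The immunoproteasome subunits held both of the calls in antigen presentation. These subunits replace the catalytic subunits of the standard proteasome in cells under interferon gamma and in blood cells, and shift cleavage towards peptides that fit MHC class I. Psmb8 (LMP7, ENSMUSG00000024338) had 65.9, 66.3 and 67.4 CPM in Arid3a-FLAG libraries 1 to 3, against 85.8, 107 and 83.4 CPM in LUC libraries 1 to 3. The 3 Arid3a-FLAG values were almost the same, and the LUC values were all above them, with library 2 the highest. Psmb8 fell with a log2 fold change of -0.47 (SE 0.11, with an adjusted p of 0.027), and without LUC library 2 its log2 fold change was -0.33 (adjusted p = 0.0063). Psmb9 (LMP2, ENSMUSG00000096727) had 27.1, 27.3 and 27.7 CPM in Arid3a-FLAG and 36.5, 38.5 and 32.9 CPM in LUC libraries. Here too the Arid3a-FLAG libraries kept close together below all LUC libraries, and Psmb9 fell (log2 fold change -0.39, SE 0.10, adjusted p = 0.043). Psmb10 (MECL-1) had 65.1, 53.5 and 61.4 CPM in Arid3a-FLAG and 74.0, 97.0 and 57.5 CPM in LUC libraries. LUC library 3 lay among the Arid3a-FLAG values and LUC library 2 was far above, so that the log2 fold change of -0.34 (SE 0.17) did not pass (adjusted p = 0.220). Gm20496, an antisense gene, overlaps 14.7% of the exonic length of Psmb8, and Tap1 overlaps 212 exonic bases of Psmb9 (5.8%) on the other strand, with the same limit on strand.

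**Figure D3:**
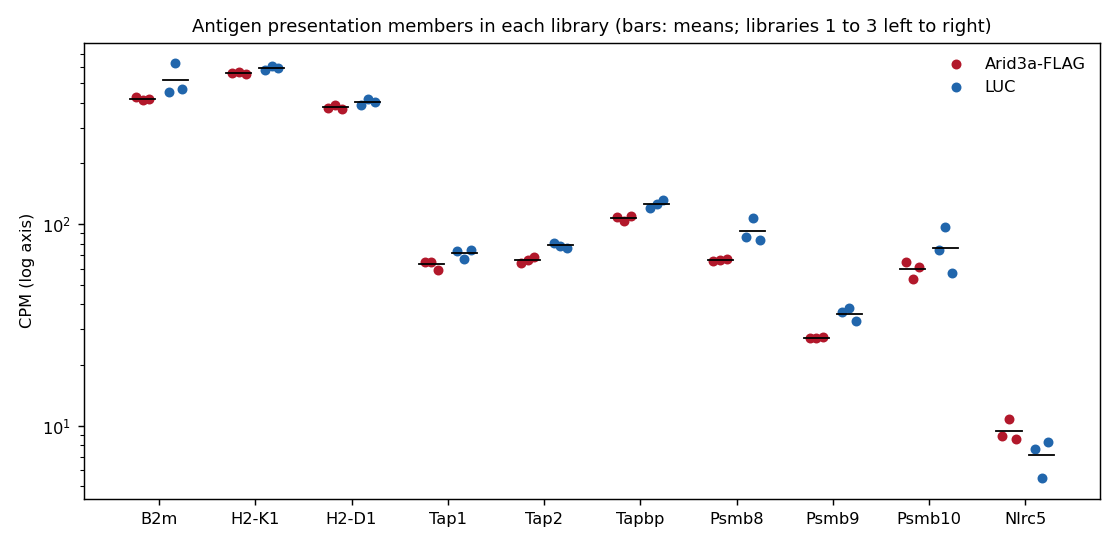
CPM (vertical, log axis) of the 10 antigen presentation genes in libraries 1 to 3 of Arid3a-FLAG (red, left of each pair) and LUC (blue, right), with a bar at each group's mean. Arid3a-FLAG values lie below LUC values except for Psmb10, where the groups overlap, and Nlrc5, where they lie above, and LUC library 2 is the highest of 6 for B2m, Psmb8 and Psmb10.

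Psmb9, Tap1, Psmb8 and Tap2 lie side by side in the class II region of the mouse MHC, at chr17:34181987-34187764, chr17:34187553-34197225, chr17:34197721-34201454 and chr17:34203527-34216321 (mm10). Psmb9 and Tap1 are read in opposite directions from RefSeq starts that lie 226 bases apart, while their GENCODE spans overlap, and their promoter windows share 275 bases. That shared stretch is shown since one of its genes fell and the other did not pass. The window of Psmb9, chr17:34187281-34187580 (minus strand, GRCm38.p6), holds no ISRE, GAS or ATTAAA match, so no base is in capitals.
Psmb9: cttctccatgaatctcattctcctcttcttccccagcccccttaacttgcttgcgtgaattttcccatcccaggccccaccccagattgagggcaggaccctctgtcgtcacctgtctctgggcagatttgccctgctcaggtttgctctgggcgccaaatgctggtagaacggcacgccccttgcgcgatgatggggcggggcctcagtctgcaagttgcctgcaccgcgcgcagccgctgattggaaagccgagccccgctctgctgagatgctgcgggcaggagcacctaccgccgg
The ratio of Tap1 to Psmb9 was 2.40, 2.38 and 2.14 in Arid3a-FLAG libraries and 2.02, 1.74 and 2.25 in LUC libraries, and the groups overlapped (two-sided exact permutation p = 0.20).

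Each immunoproteasome subunit was also set against the standard subunit whose place it takes. The ratio of Psmb8 to Psmb5 was 0.465, 0.509 and 0.536 in Arid3a-FLAG libraries 1 to 3 and 0.665, 0.594 and 0.693 in LUC libraries 1 to 3. It was lower in every Arid3a-FLAG library than in any LUC library (two-sided exact permutation p = 0.10, the smallest possible here). The ratio of Psmb9 to Psmb6 was 0.174, 0.196 and 0.196 in Arid3a-FLAG and 0.256, 0.184 and 0.238 in LUC libraries (p = 0.30, the same exact test). The ratio of Psmb10 to Psmb7 was 0.623, 0.528 and 0.629 in Arid3a-FLAG and 0.737, 0.706 and 0.598 in LUC libraries (p = 0.30, the same exact test). In the ratio of Psmb9 the LUC library inside the Arid3a-FLAG range was library 2, and in that of Psmb10 it was library 3. Over the 6 ratios formed, with those of the class I genes and of Tap1 to Psmb9, no adjusted p could pass 0.05, since 0.10 is the lowest unadjusted p.

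**Figure D4:**
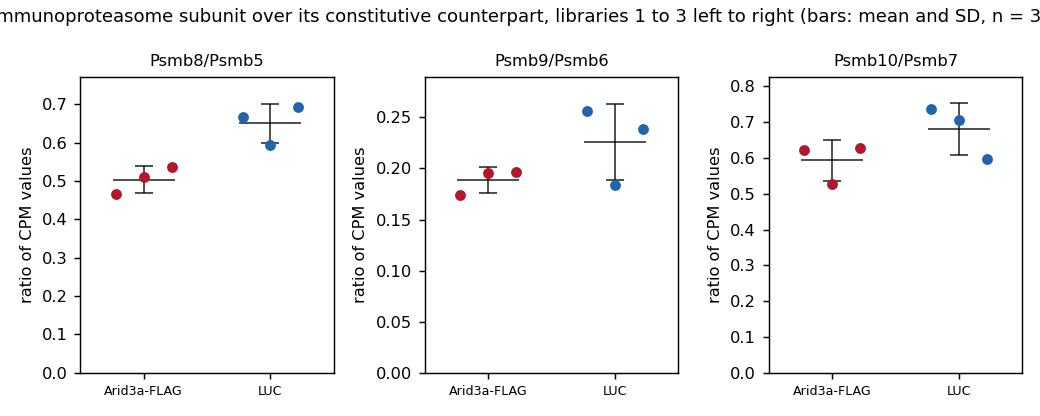
Ratio of CPM values (vertical axes, from 0) of each immunoproteasome subunit to its standard counterpart in libraries 1 to 3 of Arid3a-FLAG (red, left) and LUC (blue, right), with the mean and SD. The Psmb8 to Psmb5 ratios of the groups do not overlap, while those of Psmb9 to Psmb6 and Psmb10 to Psmb7 do.

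Nlrc5, the transactivator of the MHC class I genes, lay on the other side of 0 from the rest of the antigen presentation group. It had 8.94, 10.7 and 8.601 CPM in Arid3a-FLAG libraries, against 7.63, 5.49 and 8.31 CPM in LUC libraries. All Arid3a-FLAG values were above all LUC values, the nearest pair differing by little, and the log2 fold change of 0.40 (SE 0.19) did not pass (adjusted p = 0.216).

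None of the 7 calls was far from the threshold. Adjusted p ran from 0.027 for Psmb8 to 0.045 for Irf3, and at an adjusted p of 0.01 none of the 34 genes was called, where 125 of all genes were called higher and 137 lower. With Arid3a-FLAG library 1, 2 or 3 or LUC library 1 left out, 0 of the 34 genes were called, and the adjusted p of the 7 genes then ran between 0.051 and 0.218. In these 4 fits 115 to 209 of all genes were called higher and 118 to 356 lower, and 11, 10, 9 and 13 of the 34 genes had an unadjusted p under 0.05 without those 4 libraries in turn. The share of all genes under that cutoff was not counted in these 4 fits. With all 6 libraries it was 25.6%, so these counts do not set the 34 genes apart from the rest. Without LUC library 2 all 7 calls stood and Tap2 and Tapbp were called lower as well, while 1191 of all genes were called higher and 1095 lower. Without LUC library 3 the call of Isg20 was lost and Adar and Ifi35 were called. The direction of each of the 7 genes was the same in all 6 of these fits.

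**Figure D5:**
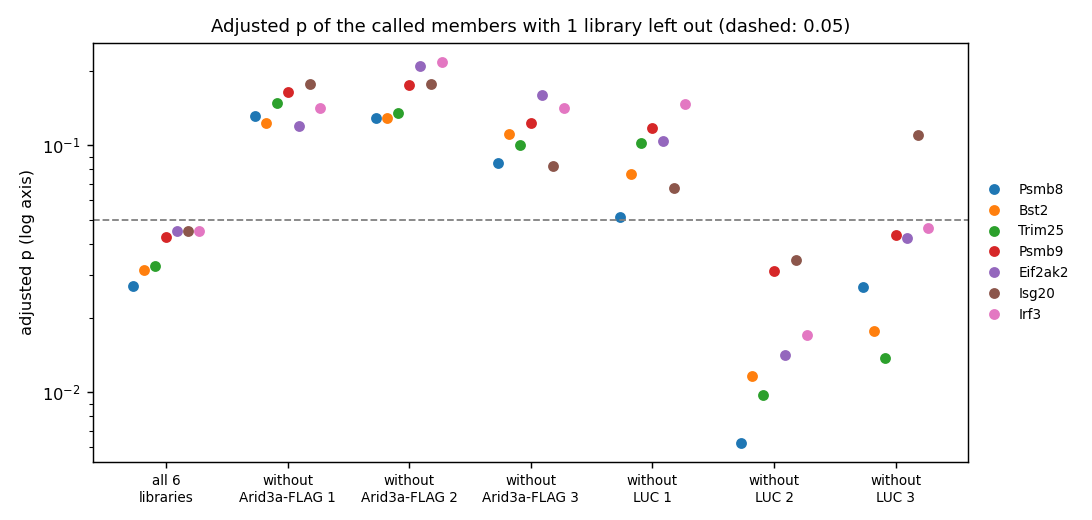
Adjusted p (vertical, log axis) of the 7 called genes with all 6 libraries and with each library left out in turn, 1 colour a gene. All 7 lie above the dashed threshold of 0.05 without any 1 of the Arid3a-FLAG libraries or without LUC library 1, and below it without LUC library 2.

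Ordered by level per kilobase of exon, the 36 genes spanned a wide range, with the class I chains at the top. The mean CPM per kb was 485 in Arid3a-FLAG and 599.7 in LUC libraries for B2m, 190.5 and 202 for H2-K1, and 147 and 156 for H2-D1, in the same order of groups. Bst2 followed with 64.9 CPM per kb in Arid3a-FLAG and 91.9 in LUC libraries, then Psmb10 with 35.2 and 44.7 and Tapbp with 29.6 and 34.7. The order of Trim25 and Psmb8 differed between the groups: Trim25 had 23.5 and Psmb8 19.7 CPM per kb in Arid3a-FLAG libraries, against 17.9 for Trim25 and 27.2 for Psmb8 in LUC libraries. At the bottom lay Irf7, Oasl2, Ifit3 and Ifit1, all under 1 CPM per kb in both groups. Several genes that type I interferon strongly induces, Oasl2, Irf7, Rsad2, Ifit1 and Ifit3, were thus among the least abundant of the list. Other interferon response genes lay higher. Besides Bst2, Usp18 had 20.1 CPM per kb in Arid3a-FLAG and 19.2 in LUC libraries, and Isg15 had 14.6 and 12.3. For antigen presentation the median coefficient of variation was 2.66% over Arid3a-FLAG libraries and 6.70% over LUC libraries, beside 7.24% and 13.6% over all genes tested. The genes of that comparison were not matched on level. Single antigen presentation genes reached 12.2% over Arid3a-FLAG and 26.1% over LUC libraries.

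Further genes of the pathway came from 7 lists of related genes, 3 of which held called genes. Their shares of the genes tested were 13.5% (5 of 37), 13.3% (2 of 15) and 16.7% (1 of 6), beside 7.29% of all genes. The receptors and transducers, the nucleic acid sensing genes and the proteasome partners had 0 called of 14, 10 and 7 tested. Of 10 interferon ligands none passed the filter on low counts: 6 had 0 counts in all libraries, and the 10 together had 0 to 3 counts per Arid3a-FLAG library and 0 to 2 per LUC library. A count of 0 in a library of this depth allows up to 3 counts, or 0.162 to 0.196 CPM, counting error only. Of 15 receptors and signal transducers 14 were tested and none passed, with 4 at an unadjusted p under 0.05. The smallest p belonged to Stat3 (log2 fold change 0.27, adjusted p = 0.119) and to Socs3, an inhibitor of JAK kinases (log2 fold change 0.34, adjusted p = 0.132). Of 15 nucleic acid sensing genes 10 were tested and none passed, with 2 at an unadjusted p under 0.05. Irf5, a factor downstream of the endosomal RNA and DNA receptors, had a log2 fold change of -0.46 (adjusted p = 0.051), and Traf3, an adaptor, of 0.21 (adjusted p = 0.183).

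Among 47 other interferon-stimulated genes, 37 were tested, 1 rose and 4 fell (13.5% called), with a median log2 fold change of -0.12, beside 3.43% of all genes called higher, 3.87% called lower and a median of -0.03. Ly6e, a surface protein that restricts entry of several viruses, had 378, 405 and 446 CPM in Arid3a-FLAG and 807, 958 and 791 CPM in LUC libraries and fell (log2 fold change -1.06, SE 0.11, adjusted p = 0.00068). Ifitm1, an interferon-induced transmembrane protein that blocks membrane fusion, averaged 1558 ± 177 CPM in Arid3a-FLAG and 2959 ± 451 CPM in LUC libraries (SD, n = 3 each) and fell (log2 fold change -0.93, SE 0.14, adjusted p = 0.0046). The Ly6e and Ifitm1 groups lay far apart, and these 2 calls stood with any 1 library left out, at adjusted p of at most 0.0108 and 0.0471. Its relatives Ifitm2 (log2 fold change -0.57, adjusted p = 0.013) and Ifitm3 (log2 fold change -0.55, adjusted p = 0.031) fell too, and are named because they complete the count of 4. Lgals3bp, a secreted glycoprotein, had 189.6, 192 and 163 CPM in Arid3a-FLAG and 124, 122 and 138 CPM in LUC libraries and rose (log2 fold change 0.51, SE 0.10, adjusted p = 0.014). Without Arid3a-FLAG library 1 or 2 the calls of Ifitm2 (adjusted p = 0.0914 and 0.0802), Ifitm3 (0.135 and 0.129) and Lgals3bp (0.0914 and 0.0922) were lost, as were that of Ifitm3 without Arid3a-FLAG library 3 (0.121) and that of Lgals3bp without LUC library 1 (0.0541).

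In the rest of the MHC and proteasome genes, every call was lower. Of 17 other MHC class I and peptide loading genes 15 were tested, 0 rose and 2 fell (13.3% called), with a median log2 fold change of -0.19. H2-T23, the nonclassical class I gene for Qa-1, had 51.8, 47.4 and 64.0 CPM in Arid3a-FLAG and 80.7, 84.7 and 80.6 CPM in LUC libraries (log2 fold change -0.59, SE 0.11, adjusted p = 0.014). H2-T22, a nonclassical gene beside it, had 22.3, 22.1 and 25.6 CPM in Arid3a-FLAG and 35.0, 37.4 and 30.7 CPM in LUC libraries (log2 fold change -0.56, SE 0.12, adjusted p = 0.019). In both the groups were separate, and the differences were larger than those of the classical genes H2-K1 and H2-D1 above, though the size of one against the other was not tested. The calls of H2-T23 and H2-T22 were lost without Arid3a-FLAG library 1 (adjusted p = 0.0910 and 0.108), Arid3a-FLAG library 2 (0.0842 and 0.106) and LUC library 1 (0.0501 and 0.0649). All 7 proteasome partners were tested and none passed, 2 at an unadjusted p under 0.05. Their fold changes lay below 0 for 6 and above 0 for 1, with a median log2 fold change of -0.17. The standard subunits Psmb5, Psmb6 and Psmb7 had log2 fold changes of -0.11, -0.17 and -0.14. Their groups overlapped, and LUC library 2 held the highest value of each. Psme1 and Psme2, the activator subunits that interferon gamma induces, had log2 fold changes of -0.38 (adjusted p = 0.103) and -0.49 (adjusted p = 0.108), with all Arid3a-FLAG values below all LUC values. Of 7 MHC class II genes 6 were tested and 1 fell: H2-Ab1 had 14.7, 12.48 and 16.1 CPM in Arid3a-FLAG and 16.7, 25.3 and 27.6 CPM in LUC libraries (log2 fold change -0.69, SE 0.18, adjusted p = 0.0498), a call that was lost without any 1 of the Arid3a-FLAG libraries (adjusted p = 0.157, 0.198 and 0.0805) or LUC library 3 (0.122).

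Markers of other cells moved between the groups as well, and fewer cells of a type cannot be told apart from less RNA per cell in these bulk libraries. The 8 markers of T and NK cells summed to 6.84 to 7.49 CPM in Arid3a-FLAG libraries and 25.3 to 41.1 CPM in LUC libraries. Nkg7, 1 of the 3 tested, made up most of this sum in LUC libraries and fell (adjusted p = 0.0001), with 3.85, 3.66 and 3.08 CPM in Arid3a-FLAG and 25.5, 34.4 and 19.6 CPM in LUC libraries, while Cd8a was at 0 throughout and Cd3e and Cd4 were at or near 0. The 9 macrophage and monocyte markers summed to 27.3 to 34.7 CPM in Arid3a-FLAG and 19.2 to 22.6 CPM in LUC libraries. Csf1r, 1 of the 5 tested, rose (adjusted p = 0.003), with 7.14, 8.24 and 8.29 CPM in Arid3a-FLAG and 1.85, 2.81 and 3.18 CPM in LUC libraries. The remaining 4 tested were not called, and of all 5 fold changes 3 lay above 0 and 2 below. C1qa and C1qb were at or near 0. The 6 markers of plasmacytoid dendritic cells, a main source of type I interferon, summed to 40.2 to 41.7 CPM in Arid3a-FLAG and 41.7 to 52.5 CPM in LUC libraries, nearly all from Tcf4 and Irf8. Irf8, 1 of the 2 tested, fell (adjusted p = 0.032), with 5.65, 7.37 and 8.35 CPM in Arid3a-FLAG and 10.9, 11.97 and 12.3 CPM in LUC libraries, while Siglech was at or near 0 and Klk1 at 0. Neutrophil markers (8 listed, 1 tested), B cell markers (5 listed, 0 tested) and hepatocyte markers (5 listed, 1 tested) held no call. The neutrophil markers summed to 6.15 to 15.6 CPM in Arid3a-FLAG and 9.34 to 10.01 CPM in LUC libraries, with Retnlg at 0. The B cell markers summed to 0.348 to 0.565 CPM in Arid3a-FLAG and 0.458 to 0.693 CPM in LUC libraries, with Ms4a1 at 0. The hepatocyte markers summed to 15.7 to 19.9 CPM in Arid3a-FLAG and 19.1 to 26.4 CPM in LUC libraries, nearly all from Afp, with Ttr at 0. Of 6 endothelial and stromal markers 3 were tested, Kdr rose and Pdgfrb fell, with Cdh5 and Col3a1 at 0, and the sums were 88.0 to 116.6 CPM in Arid3a-FLAG and 112.2 to 139.2 CPM in LUC libraries. Of 11 markers of blood progenitors and their megakaryocyte, erythroid and mast cell offspring all were tested, 2 rose and 2 fell, with sums of 6149 to 6266 CPM in Arid3a-FLAG and 6303 to 7896 CPM in LUC libraries. Their log2 fold changes ran from -1.54 to 1.93. Of the markers tested, 36.4% were called in this list, beside 7.29% of all genes. The share was 33.3% for T and NK cells and 20% for macrophages and monocytes. It was 50% for plasmacytoid dendritic cells and 66.7% for endothelium and stroma, lists with few genes tested. The part of all these cell types in the values of the interferon and MHC class I genes was not tested.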

How the data were processed

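RNA was measured in 3 Arid3a-FLAG and 3 LUC samples. The deposited table holds raw read counts per gene, made by the authors with fastp, HISAT2 2.0.5 and featureCounts on mm10, per the submitters' processing notes. Annotation release, strand setting and the treatment of reads that map to several places were not given in the sources used here. Total counts were 15728150 to 18249053 per sample, and the floors given for low genes cover counting error only.

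Gene identifiers were paired with symbols, coordinates and exon lengths from GENCODE M21, which left 95 identifiers without a symbol (0.0107% to 0.0170% of the counts). The construct's entry was left out. From the counts, edgeR 4.0.16 in R 4.3.3 (filterByExpr, TMM, quasi-likelihood F test, two-sided, group as the only term) gave fold changes and p-values for 13631 genes, Benjamini-Hochberg adjusted over all of them, with a threshold of 0.05. SE values came from the fold change and its F statistic. CPM used the TMM-scaled library size. The procedure was tested on simulated counts. DESeq2 1.42.0, limma 3.58.1 (voom), other scalings and filters, and leaving out libraries were the alternatives.

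The 36 members, the related gene lists and the marker lists were chosen with earlier results of these data known. Values per library are given for every called member, every antigen presentation member tested and the 8 uncalled interferon members with the smallest p. From each list of related genes up to 2 called genes a direction are named, or the 2 with the smallest p. Pairs of libraries within a group differed by more than sampling noise (chi-square per degree of freedom 4.87 to 33.9), so none was counted as a copy.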

Additional observations from a re-analysis of the deposited data

How the results depend on the processing

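Most directions held and many calls did not. Over the alternatives run for the 34 tested genes of the list, 429 kept direction and side of the threshold, 37 lost the call, 4 gained it and 8 changed sign. The sign changes were in 3 uncalled genes near 0: Rsad2 (-0.076 with limma-voom, -0.039 with the replicate block, -0.29 to 0.31 with a library left out), Stat2 (-0.13 to 0.31) and Parp14 (-0.11 to 0.0096). With a library left out, interferon response calls ran from 0 to 3 higher and 0 to 3 lower, antigen presentation calls from 0 to 4 lower, and calls among all genes from 115 to 1191 higher and 118 to 1095 lower. At an adjusted p of 0.01 there were 0 calls higher and 0 lower in the interferon list, 0 lower in antigen presentation, and 125 higher and 137 lower among all genes. Upper quartile factors gave 1 interferon gene higher. Without the 20 most abundant genes 1 was lower. With no filter 869 genes were called higher and 1076 lower, and DESeq2 called 731 higher. Antigen presentation had 0 genes called higher under any alternative, DESeq2 and limma-voom included. In the main fit 0 of its genes were higher at an unadjusted p under 0.05. Without LUC library 3 Nlrc5 was higher at that level (log2 fold change 0.55, quasi-likelihood F test, unadjusted p = 0.031, adjusted p = 0.141).

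For samples of equal replicate number, the correlations of their deviations from the group means were -0.103, -0.115 and 0.125. Arid3a-FLAG samples 1 and 2 correlated more with a LUC sample of another number, and sample 3 correlated most with LUC sample 3. With 3 samples a group these values cannot settle whether equal numbers pair the samples. The fit with a replicate block called 1 interferon gene higher and 1 lower, 1 antigen presentation gene lower, and 410 of all genes higher and 530 lower. With Ifit3 and Ifit3b added, the sum stayed under the filter and gave no value. Causes of these differences were not tested. Depth limits the low genes: Ifit1 and Ifit3 rest on at most 10 counts a library.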
